A study of Mus musculus with 10 samples.

Results

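The 9 genes described here had far fewer reads in mouse O9-1 cells after loss of the histone acetyltransferase Kat5: *Tnn*, *Lrrc17*, *Esm1*, *Chrm3*, *Atp2a3*, *Fyb*, *Dennd3*, *Capn6* and *Usp11*. They were picked by symbol out of the 43346 genes of the deposited table of raw counts, because earlier results of the same libraries had shown them low in the Kat5 ko clones. Their difference between Kat5 ko clones and wildtype cells is therefore a description and carries no test here. The same wildtype libraries entered that choice, so levels and spread in wildtype cells are a description as well. The clones that lack Ep400 did not enter it, but their fold changes are taken against those wildtype libraries.

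O9-1 is a line derived from mouse cranial neural crest, kept on Matrigel in medium that STO feeder fibroblasts had conditioned before it was filtered. The 10 RNA libraries came from 4 independent samples of wildtype O9-1 cells, from 3 clones labelled Kat5 ko and from 3 labelled Ep400 ko, with 1 library for each clone. Cas9 and a guide RNA were delivered by plasmid to the edited cells, which were sorted and grown from single cells, whereas the wildtype samples are not described as edited or cloned, so that editing and cloning cannot be told apart from loss of the gene. The line is tetraploid. All alleles carried insertions or deletions in the Kat5 ko clones, in exon 8. In Ep400, cut in exon 15, clone Ep400/1 had frameshifts in all alleles, while Ep400/3 kept a short in-frame deletion in 1 of the 4 alleles and Ep400/2 in 3 of them. Between 30968945 and 48301792 reads per library were counted on genes. Levels are given as CPM, the count of a gene scaled to a fixed total of reads per library after TMM normalization.

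Kat5 and Ep400 are subunits of the same chromatin complex, Tip60/Ep400. Kat5 acetylates histones H2A and H4 and other proteins, and Ep400 is an ATPase that exchanges H2A for the variant H2A.Z. Both activities are associated with transcription, and because both proteins sit in a shared complex, the comparison of the clones asks whether a gene that is low without the acetyltransferase is also low without the ATPase. The genes themselves belong to unrelated families. *Tnn*, *Lrrc17* and *Esm1* encode secreted proteins, *Chrm3* a receptor, *Atp2a3* a calcium pump, and the other genes intracellular proteins of adhesion signalling, vesicle traffic, microtubules and ubiquitin removal.

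The targeted genes themselves were low in their clones. *Kat5* was at 57.5, 48.8, 52.3 and 56.4 CPM in the wildtype libraries and at 22.9, 16.4 and 23.2 CPM in clones Kat5/1, Kat5/2 and Kat5/3. *Ep400* was at 54.7, 61.4 and 59.7 CPM in clones Ep400/1, Ep400/2 and Ep400/3, against 157 to 165 CPM in wildtype cells. *Kat5* was not low in the Ep400 ko clones, all of which lay above the wildtype range, with 64.5 to 79.1 CPM. Its log2 fold change there was 0.40 (standard error 0.13, adjusted p = 0.0768 from edgeR). Of all genes tested, 16.1% had all Ep400 ko clones above the wildtype range. *Ep400* was at 146 to 230 CPM in the Kat5 ko clones.

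Of markers for cranial neural crest and mesenchyme, 14 of 16 had a mean of at least 1 CPM in wildtype cells, and *Vim* and *Prrx1* led the list. The summed level of this list was 7962 to 9621 CPM in wildtype cells, 7344 to 7714 CPM in the Kat5 ko clones and 9234 to 12906 CPM in the Ep400 ko clones. *Esm1* is known from endothelium and *Fyb* from blood cells, so markers of both were read as well. Of 10 endothelial markers, 4 (*Cldn5*, *Emcn*, *Kdr* and *Tie1*) stayed under 0.1 CPM in every library, and the list summed to 1.56 to 2.24 CPM in wildtype cells, 0.53 to 1.43 CPM in Kat5 ko clones and 1.55 to 2.56 CPM in Ep400 ko clones. Of 12 haematopoietic markers, *Cd3e*, *Gata1* and *Tal1* had a count of 0 in all libraries, and the list summed to 1.20 to 2.20, 0.66 to 2.42 and 1.97 to 4.22 CPM in the same order. *Fyb* alone was at 24.3 to 33.5 CPM in wildtype cells. The 10 neuronal and glial markers summed to 4.75 to 7.88 CPM in wildtype cells, 3.26 to 12.3 CPM in Kat5 ko clones and 13.3 to 27.5 CPM in Ep400 ko clones, with *Sox10* at 0. Muscle markers summed to at most 1.73 CPM in any library. The 8 epithelial markers summed to 1.65 to 4.80 CPM in wildtype cells, 0.42 to 0.83 CPM in Kat5 ko clones and 0.56 to 1.00 CPM in Ep400 ko clones. Neither knockout overlapped with wildtype in this sum. In the Kat5 ko clones, the sums of the neural crest and endothelial lists did not overlap with wildtype either. The same held for the neuronal and glial sum in the Ep400 ko clones. Of all single genes tested, 10.2% lay wholly below the wildtype range in the Kat5 ko clones and 9.67% above it. In the Ep400 ko clones these shares were 14.1% and 16.1%. Such shares were not determined for sums of lists, so these gaps are a description. Of the 3 epithelial markers tested, *Krt8* and *Krt18* were lower in the Ep400 ko clones at an adjusted p of at most 0.05 (edgeR). At that threshold, 4 of 16 neural crest and mesenchyme markers and 2 of 3 neuronal and glial markers were higher there. Of 3 endothelial markers tested, *Pecam1* was lower and 1 was higher, and 0 of 2 haematopoietic markers passed. Of all genes tested, 5.72% were lower and 8% higher. In the Kat5 ko clones, 0 of 3 epithelial markers were lower or higher at that threshold, and none of the markers tested from the other lists was. *Cldn4*, *Esrp1*, *Krt14* and *Krt5* stayed under 0.1 CPM in every library. The part of epithelial cells in the levels of the 9 genes was not tested. In such bulk RNA, fewer cells that express a gene and less of its RNA per cell cannot be told apart.

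The reference sequence before the start of transcription is shown for 5 of the genes, because genes that are low together are often compared at their promoters. RefSeq on GRCm38.p6, the assembly of the build mm10, gives a start for 8 of the 9 genes, all but *Dennd3*. The 150 bases that end at the start were read on the strand of the gene. Capitals mark matches to the CCAAT box (CCAAT or ATTGG), the GC box (GGGCGG or CCGCCC) and the AP-1 site (TGACTCA or TGAGTCA), searched on both strands like the TATA box (TATAAA or TTTATA) and the E-box (CACGTG). The GC box matches of *Atp2a3* overlap each other.
Tnn (chr1:160153576-160153725, minus strand): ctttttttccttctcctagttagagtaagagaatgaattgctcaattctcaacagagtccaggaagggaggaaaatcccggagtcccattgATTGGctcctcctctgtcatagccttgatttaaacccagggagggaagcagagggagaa
Lrrc17 (chr5:21543377-21543526, plus strand): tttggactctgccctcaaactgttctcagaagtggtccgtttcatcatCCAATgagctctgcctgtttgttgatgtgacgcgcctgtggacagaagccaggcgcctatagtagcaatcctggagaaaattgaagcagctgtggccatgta
Atp2a3 (chr11:72961019-72961168, plus strand): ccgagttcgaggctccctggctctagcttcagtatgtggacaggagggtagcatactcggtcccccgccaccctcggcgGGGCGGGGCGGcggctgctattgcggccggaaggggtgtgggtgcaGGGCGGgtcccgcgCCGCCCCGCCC
Capn6 (chrX:143827413-143827562, minus strand): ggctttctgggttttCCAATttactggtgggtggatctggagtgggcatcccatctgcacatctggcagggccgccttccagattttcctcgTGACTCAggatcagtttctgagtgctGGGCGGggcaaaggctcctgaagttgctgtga
Usp11 (chrX:20703759-20703908, plus strand): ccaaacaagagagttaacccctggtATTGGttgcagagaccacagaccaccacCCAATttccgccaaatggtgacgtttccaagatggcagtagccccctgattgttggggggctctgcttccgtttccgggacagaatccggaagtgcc

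A CCAAT box was found in this window for 5 of the 8 genes, against 24.5% of the 32851 promoters of the table. GC boxes were found for *Atp2a3* and *Capn6* (28.6% of all promoters), an AP-1 site for *Capn6* (2.84%), and neither a TATA box (7.57%) nor an E-box (4.30%) for any of the 8. These are matches of letters and no measure of binding. Only the window of *Atp2a3*, with 73.3% G and C and 16 CpG, met a rule for CpG-rich promoters (at least 50% G and C and an observed/expected CpG ratio of at least 0.6), which 33.5% of all promoters met. The other 7 windows had 1 to 5 CpG. For *Fyb* the RefSeq start lies 56994 bases downstream of the first GENCODE start, so that its window belongs to a start inside the annotated gene.

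*Tnn* (ENSMUSG00000026725, chr1:160085029-160153580, minus strand) encodes tenascin-N, a matrix glycoprotein of bone surfaces and stem cell niches. It was at 26.7, 5.40, 17.3 and 27.8 CPM in wildtype libraries 1 to 4. In clones Kat5/1, Kat5/2 and Kat5/3 it was at 0.85, 0.46 and 0.48 CPM. All Kat5 ko clones lay below the lowest wildtype library, by a factor of at least 6.33. In clones Ep400/1, Ep400/2 and Ep400/3 it was at 1.62, 39.9 and 226 CPM, so that clone 1 lay below the wildtype range and the other clones above it. The log2 fold change of *Tnn* against wildtype was −5.03 in the Kat5 ko clones (standard error 0.64) and 2.20 in the Ep400 ko clones (standard error 1.14, adjusted p = 0.218 from edgeR). The size of the rise in the Ep400 ko clones rested on clone 3, without which the log2 fold change was 0.098. Without clone 1 it was 2.78, with an adjusted p of 0.0439 from edgeR. The highest Ep400 ko clone had 139.5 times the level of the lowest, the widest ratio of the 9 genes.

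*Lrrc17* (ENSMUSG00000039883, chr5:21543559-21575904, plus strand) encodes a secreted protein with leucine-rich repeats, described as an inhibitor of osteoclast formation driven by RANKL. It was at 21.8 and 22.3 CPM in wildtype libraries 1 and 4, and at 3.81 and 5.22 CPM in libraries 2 and 3. In the Kat5 ko clones it had 0, 0 and 4 raw counts. A count of 0 allows up to 0.083 CPM in clone Kat5/1 and 0.099 CPM in clone Kat5/2 (3 counts, counting error only), and clone Kat5/3 was at 0.088 CPM. The mean of the Kat5 ko clones was 0.22% of the wildtype mean, the lowest share among the 9 genes. The fitted log2 fold change of −8.49 (standard error 1.19) is the lowest of the 13434 genes fitted and depends, at such counts, on the prior count of the fit. Clones Ep400/1, Ep400/2 and Ep400/3 were at 0.23, 0.72 and 9.08 CPM, with clones 1 and 2 below the wildtype range and clone 3 within it. Against wildtype, the log2 fold change was −1.98 in the Ep400 ko clones (standard error 1.16, adjusted p = 0.270 from edgeR), and −4.83 without clone Ep400/3 (adjusted p = 0.0333 from edgeR). *Fbxl13*, which overlaps *Lrrc17* on the opposite strand, had a mean of 10.1 raw counts per library.

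*Esm1* (ENSMUSG00000042379, chr13:113209659-113218098, plus strand) encodes endocan, a secreted proteoglycan. It had the widest spread among wildtype cultures, with 12.0, 27.2, 1.54 and 11.5 CPM in libraries 1 to 4. The Kat5 ko clones were at 0.61, 0.13 and 0.13 CPM, all below the lowest wildtype library, which was 2.54 times as high as the highest clone. Clones Ep400/1 to Ep400/3 were at 0.047, 1.94 and 0.10 CPM. Clones 1 and 3 lay below the wildtype range, and clone 2 lay just above wildtype library 3. Against wildtype, its log2 fold change was −5.50 in the Kat5 ko clones (standard error 1.07) and −4.27 in the Ep400 ko clones (standard error 1.34, adjusted p = 0.0668 from edgeR), where it had the largest decrease of the 9 genes. Its adjusted p from edgeR was 0.0469 without wildtype library 3 (log2 fold change −4.65) and 0.0197 without clone Ep400/2 (−7.45), and DESeq2 gave 0.0171. The overlapping gene on the other strand, *Gzmk*, had a mean of 0.9 raw counts.

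*Chrm3* (ENSMUSG00000046159, chr13:9875486-10360847, minus strand) encodes the muscarinic acetylcholine receptor M3, which signals through Gq proteins. Wildtype libraries 1, 3 and 4 were at 7.44, 7.82 and 7.88 CPM, and library 2 stood apart at 15.0 CPM. The Kat5 ko clones were at 0.80, 1.32 and 0.70 CPM, below all wildtype libraries. The Ep400 ko clones were at 7.88, 74.7 and 26.5 CPM. None of them was below the wildtype range, clone 1 was within it and the other clones were above it. The log2 fold change of *Chrm3* was −3.37 (standard error 0.41) in the Kat5 ko clones and 1.93 (standard error 0.63, adjusted p = 0.0743 from edgeR) in the Ep400 ko clones. In the Ep400 comparison it was past the threshold with DESeq2 (adjusted p = 0.00900) and, in edgeR, without clone Ep400/1 (log2 fold change 2.40, adjusted p = 0.0163), and it was 0.82 without clone Ep400/2. The antisense gene *Gm26861*, which overlaps its start, had a mean of 8.3 raw counts.

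*Atp2a3* (ENSMUSG00000020788, chr11:72961169-72993044, plus strand) encodes SERCA3, a pump that returns calcium to the endoplasmic reticulum. As for *Lrrc17*, wildtype libraries 1 and 4 were the higher ones, with 14.9 and 14.6 CPM, against 1.79 and 4.10 CPM in libraries 2 and 3. In the Kat5 ko clones it had 0, 5 and 1 raw counts, or 0, 0.16 and 0.022 CPM. The lowest wildtype library was 10.9 times as high as the highest of these clones. In the Ep400 ko clones it was at 3.42, 3.31 and 3.46 CPM. These clones were nearly alike, with a CV (SD as a percentage of the mean) of 2.27%, and all lay within the wildtype range. Its log2 fold change was −7.25 in the Kat5 ko clones (standard error 1.23) and −1.38 in the Ep400 ko clones (standard error 0.68, adjusted p = 0.196 from edgeR).

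*Fyb* (ENSMUSG00000022148, chr15:6522853-6663313, plus strand) encodes ADAP, an adaptor that links receptor signalling to integrins in T cells and platelets. It was at 26.2, 24.3, 33.5 and 27.0 CPM in the wildtype libraries and at 6.42, 3.92 and 7.56 CPM in the Kat5 ko clones. The groups were 3.22-fold apart at their nearest points. The Ep400 ko clones differed from each other, with 5.28 and 9.93 CPM in clones 1 and 3, below the wildtype range, and 27.8 CPM in clone 2, within it. For *Fyb* the log2 fold change was −2.24 in the Kat5 ko clones (standard error 0.26) and −0.96 in the Ep400 ko clones (standard error 0.48, adjusted p = 0.207 from edgeR). Without clone Ep400/2 it was −1.89 (adjusted p = 0.0127 from edgeR), but −0.56 without clone Ep400/1 (adjusted p = 0.328 from edgeR). The pseudogene *Gm7666*, which lies within *Fyb*, had a mean of 35.3 raw counts.

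*Dennd3* (ENSMUSG00000036661, chr15:73512560-73572242, plus strand) encodes an exchange factor that activates the GTPase Rab12 in membrane traffic. Wildtype libraries 1, 2 and 4 were at 8.55, 6.73 and 8.08 CPM and library 3 was at 19.4 CPM. The Kat5 ko clones were the most alike of the 9 genes, at 1.54, 1.32 and 1.30 CPM. Its levels in the Ep400 ko clones were 3.89, 2.25 and 5.13 CPM. *Dennd3* was the only gene of the 9 for which all Ep400 ko clones, as well as all Kat5 ko clones, lay below the wildtype range. Its fitted log2 fold change was −2.97 in the Kat5 ko clones (standard error 0.44) and −1.51 in the Ep400 ko clones (standard error 0.45, adjusted p = 0.0598 from edgeR). DESeq2 gave an adjusted p of 0.00381 for the Ep400 ko clones, and edgeR without a filter on low counts 0.0366. With 1 library left out at a time, its adjusted p from edgeR was 0.0615 to 0.133.

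*Capn6* (ENSMUSG00000067276, chrX:143802231-143827414, minus strand) encodes a calpain without protease activity that stabilizes microtubules. It was at 14.8, 10.3, 4.20 and 16.3 CPM in the wildtype libraries. In the Kat5 ko clones it was at 3.14, 0.72 and 0.42 CPM, and clone Kat5/1 came within a factor of 1.34 of wildtype library 3, the narrowest gap of the 9 genes. Without Ep400, the clones were at 0.52, 0.91 and 10.9 CPM. Clones 1 and 2 lay below the wildtype range and clone 3 near its middle. The fitted log2 fold change was −3.01 in the Kat5 ko clones (standard error 0.78) and −1.47 in the Ep400 ko clones (standard error 0.97, adjusted p = 0.325 from edgeR). Without clone Ep400/3 it was −4.01 (adjusted p = 0.0141 from edgeR), but −0.95 without clone Ep400/1 (adjusted p = 0.487 from edgeR).

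*Usp11* (ENSMUSG00000031066, chrX:20703906-20720539, plus strand) encodes a deubiquitinase related to Usp4 and Usp15. It had the highest level and the smallest wildtype spread of the 9 genes, with 55.8, 51.5, 67.4 and 57.0 CPM. The Kat5 ko clones were at 23.0, 16.3 and 20.0 CPM, a mean of 34.1% of the wildtype mean, and so retained more of this RNA than of any other of the 9. In clones Ep400/1 to Ep400/3 it was at 33.6, 36.5 and 67.2 CPM, with clones 1 and 2 below the wildtype range and clone 3 at its upper end. *Usp11* had a log2 fold change of −1.58 in the Kat5 ko clones (standard error 0.18) and −0.34 in the Ep400 ko clones (standard error 0.25, adjusted p = 0.369 from edgeR). Without clone Ep400/3 it was −0.73 (adjusted p = 0.0250 from edgeR), but −0.16 without clone Ep400/1 and −0.23 without clone Ep400/2 (adjusted p = 0.680 and 0.610 from edgeR).

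**Figure D1:**
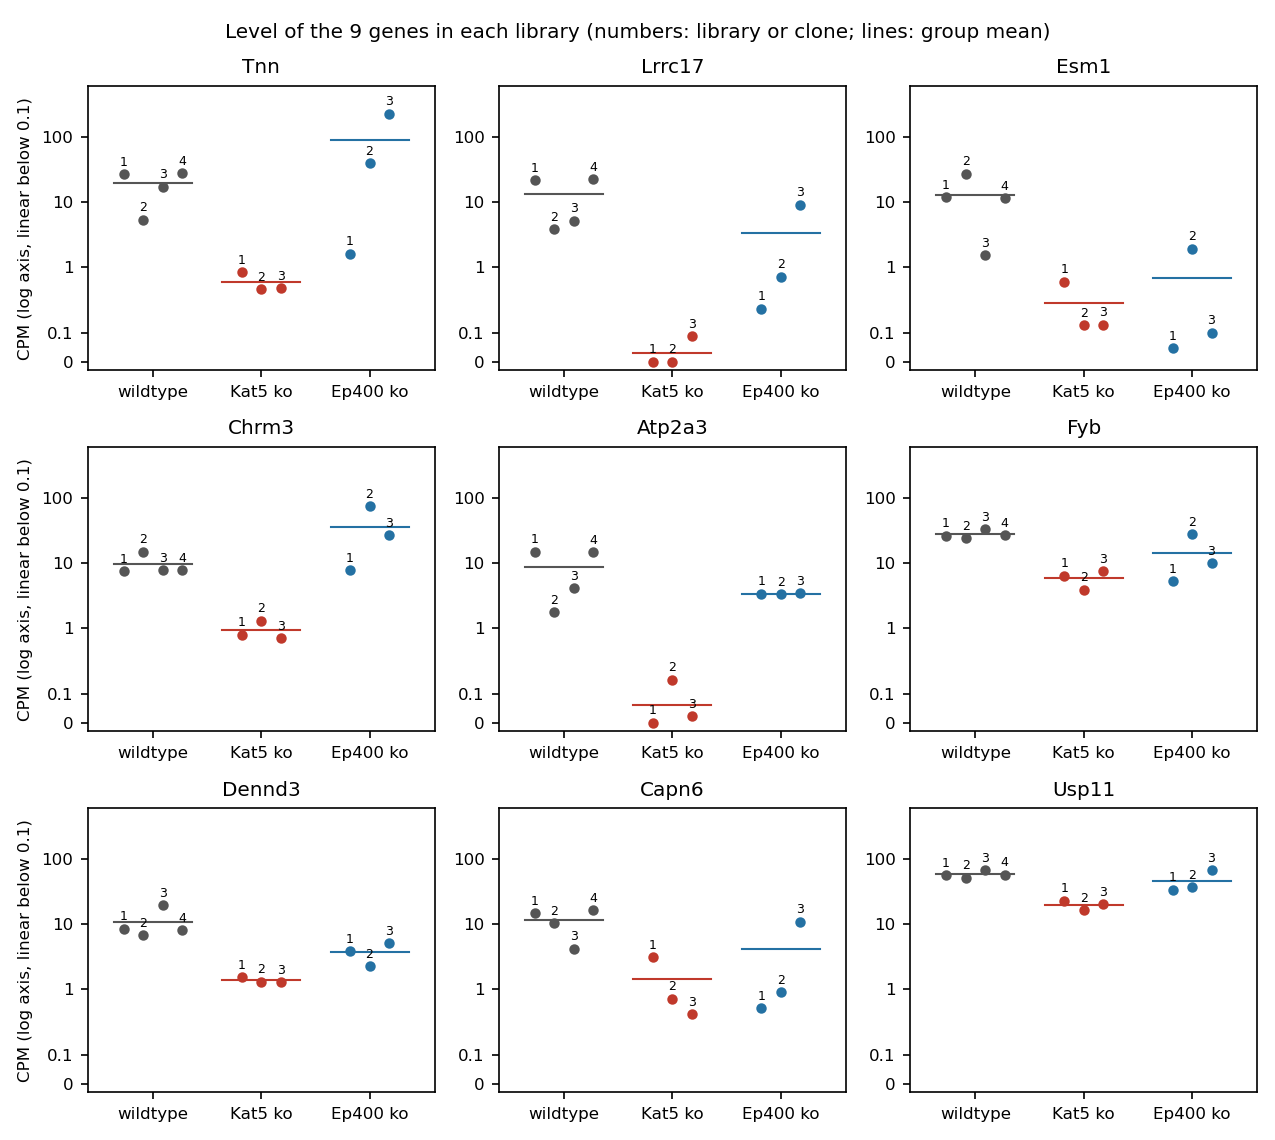
Level of each of the 9 genes in CPM (log axis, linear below 0.1) in the 4 wildtype libraries, 3 Kat5 ko clones and 3 Ep400 ko clones. Points are libraries with their numbers and lines are group means. The Kat5 ko clones sit below all wildtype libraries in every panel, while the Ep400 ko clones sit on both sides of the wildtype points for *Tnn* and close together, at 3.31 to 3.46 CPM, for *Atp2a3*.

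Across the group, the level in the Kat5 ko clones ranged from 0.22% of the wildtype mean for *Lrrc17* and 0.70% for *Atp2a3*, through 2.22% for *Esm1*, 3.10% for *Tnn*, 9.86% for *Chrm3*, 12.6% for *Capn6* and slightly more for *Dennd3*, to 21.5% for *Fyb* and 34.1% for *Usp11*. *Lrrc17* and *Atp2a3* were the genes with a raw count of 0 in at least 1 Kat5 ko clone, and *Esm1* had 4 and 6 raw counts in clones Kat5/2 and Kat5/3. All 9 genes had all Kat5 ko clones below the wildtype range, which held for 10.2% of the 13434 genes tested. Of the 9, 7 met the DEG thresholds (absolute log2 fold change of at least 1, adjusted p of at most 0.05, mean normalized count above 100 in 1 group or more), as did 0.365% of all genes tested in this direction. Both counts follow from the way the genes were picked. *Esm1* and *Capn6* were the genes that did not meet them. The number that did was 0 without wildtype library 1, wildtype library 4 or clone Kat5/3, 3 when clone Kat5/2 was left out and 9 when Kat5/1 was, and it was 6 without robust estimation of the spread, as *Atp2a3* then missed the threshold.

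The wildtype cultures differed widely in most of these genes. The ratio of the highest to the lowest wildtype library was 17.7 for *Esm1*, 8.34 for *Atp2a3*, 5.84 for *Lrrc17*, 5.15 for *Tnn*, 3.87 for *Capn6*, 2.88 for *Dennd3* and 2.02 for *Chrm3*, but 1.38 for *Fyb* and 1.31 for *Usp11*. The CV among wildtype libraries was 81.3% for *Esm1*, 77.8% for *Atp2a3* and 76.3% for *Lrrc17*, and 14.4% and 11.7% for *Fyb* and *Usp11*. The median CV of the 11788 genes with a mean of at least 1 CPM in wildtype cells was 14.5%. For 6 of the 9 genes the CV exceeded 38.9%, the 90th percentile of these genes. Among the 5209 genes whose wildtype mean lay within the range of the 9, the 90th percentile was 31.8% and 7 of the 9 exceeded it.

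The same cultures were not high for every gene. Libraries 1 and 4 were the highest for *Tnn*, *Lrrc17*, *Atp2a3* and *Capn6*, library 3 for *Fyb*, *Dennd3* and *Usp11*, and library 2 for *Chrm3* and *Esm1*. Library 2 was the lowest for 6 of the 9 genes, and library 4 for none. For *Esm1*, the difference between wildtype libraries 2 and 3 was larger than that between library 3 and clone Kat5/1 on the log scale.

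**Figure D2:**
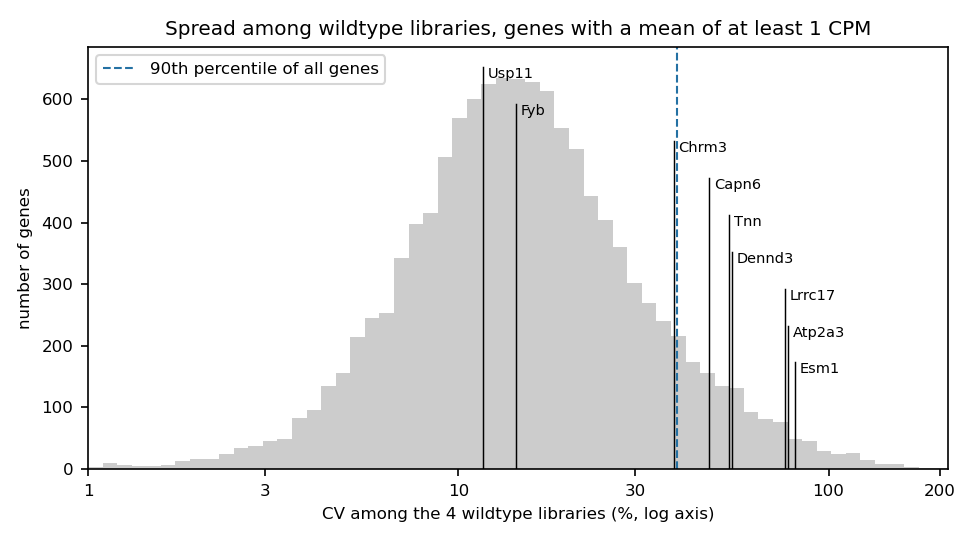
Number of genes (y axis) by the CV among the 4 wildtype libraries in percent (x axis, log scale), for the 11788 genes with a mean of at least 1 CPM. Vertical lines mark the 9 genes, 6 of which lie to the right of the dashed 90th percentile at 38.9%, while *Fyb* (14.4%) and *Usp11* (11.7%) lie near the peak of the distribution.

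Levels were compared between the genes as CPM per kilobase of merged exons. In wildtype cells *Usp11* was the highest at 12.2 ± 1.43 (SD, n = 4), followed by *Esm1* at 6.22 ± 5.06, *Fyb* at 5.15 ± 0.74, *Lrrc17* at 3.68 ± 2.81, *Tnn* at 3.32 ± 1.79, *Dennd3* at 1.87 ± 1.02, *Atp2a3* at 1.68 ± 1.31, *Chrm3* at 1.52 ± 0.58 and *Capn6* at 1.46 ± 0.70. The wildtype ranges of neighbours in this order overlapped for every pair. Among the 9 genes *Tnn* was the highest in the Ep400 ko clones, with a mean of 15.3 per kilobase, ahead of *Usp11* at 9.67 and *Chrm3* at 5.81. In the Kat5 ko clones *Usp11* at 4.18 and *Fyb* at 1.11 came first, and the other 7 genes were at 0.24 per kilobase or less.

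None of the 9 genes met the DEG thresholds in the Ep400 ko clones, in which 2.3% of the 13836 genes tested did so as lower and 4.12% as higher (edgeR). At an unadjusted p of at most 0.05, 3 of the 9 passed, *Esm1* and *Dennd3* lower and *Chrm3* higher, against 32.2% of all genes in either direction. DESeq2 called 2 of them lower and 1 higher, and 8.55% and 11.1% of all genes it tested. The log2 fold change was below 0 for 7 of the 9 genes and above 0 for *Tnn* and *Chrm3*, with a median of −1.38 for the 9 and 0.043 for all genes tested. For comparison, the median of the 9 genes in the Kat5 ko clones was −3.37. Both comparisons use the same wildtype libraries, so their values are set side by side only. The share of all genes below 0 was not determined. Since these wildtype libraries entered the choice of the genes, that choice favours values below 0. For 1 of the 9 genes, *Dennd3*, all Ep400 ko clones lay below the wildtype range, which 14.1% of the genes tested did. All Ep400 ko clones lay above it for 0 of the 9, against 16.1% of genes.

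**Figure D3:**
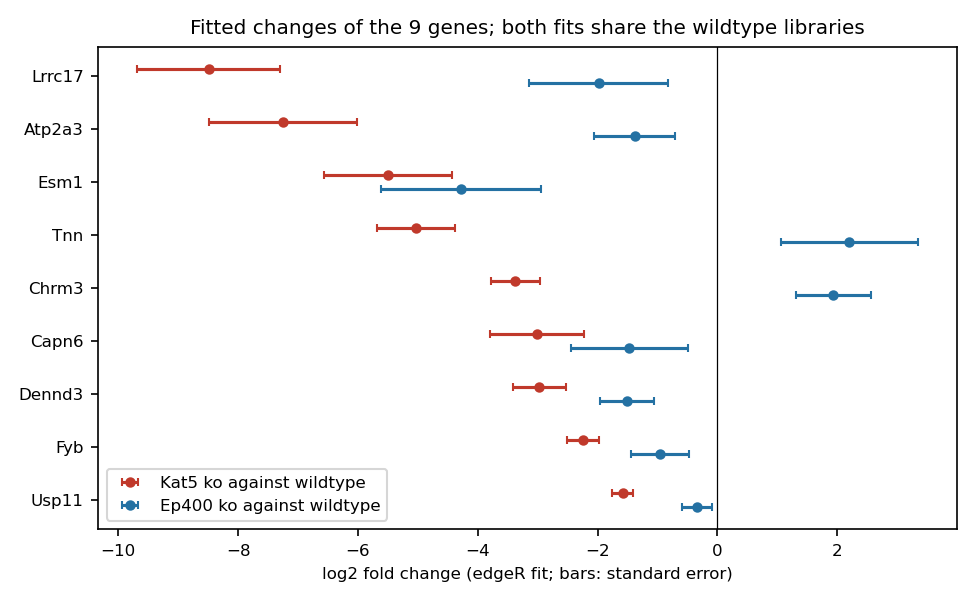
Fitted log2 fold changes (x axis) of the 9 genes against the shared wildtype libraries, for Kat5 ko clones (red) and Ep400 ko clones (blue), with standard errors. All red points lie below 0, from −8.49 to −1.58, and the blue points of *Tnn* (2.20) and *Chrm3* (1.93) lie above 0.

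The Ep400 ko clones were unlike each other in these genes. Clone Ep400/1 was within the range of the wildtype libraries for *Chrm3* and *Atp2a3* and below it for the other genes. Clone Ep400/2 was below that range for *Lrrc17*, *Dennd3*, *Capn6* and *Usp11*, above it for *Tnn* and *Chrm3* and within it for the others. Clone Ep400/3 lay below it for *Esm1*, *Fyb* and *Dennd3*, above it for *Tnn* and *Chrm3* and within it for the others. The share of all genes outside this range in a single clone was not determined, so these positions are a description. The median level of the 9 genes was 19.0%, 37.4% and 68.5% of the wildtype mean in clones 1, 2 and 3, against 8.38%, 6.37% and 3.68% in clones Kat5/1, Kat5/2 and Kat5/3. The ratio of the highest to the lowest Ep400 ko clone exceeded 3.73, the 90th percentile of all genes tested in this comparison, for 6 of the 9 genes. It was 139.5 for *Tnn*, 41.3 for *Esm1*, 38.7 for *Lrrc17*, 21.1 for *Capn6*, 9.48 for *Chrm3* and 5.26 for *Fyb*. The number of in-frame *Ep400* alleles was 0, 3 and 1 of 4 in clones 1, 2 and 3. *Chrm3*, *Esm1* and *Fyb* were ordered by that number, lowest in clone 1 and highest in clone 2. *Tnn*, *Lrrc17*, *Capn6*, *Usp11*, *Dennd3* and *Atp2a3* were highest in clone 3 instead. Of these, *Dennd3* and *Atp2a3* were lowest in clone 2, although *Atp2a3* was nearly alike in all clones. With 1 clone of each kind, the part of these alleles was not tested. *Ep400* RNA itself differed little between the clones, at 34.3%, 38.5% and 37.4% of the wildtype mean.

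Set directly against each other, the Ep400 ko clones had more RNA of these genes than the Kat5 ko clones. The log2 fold change of Ep400 ko against Kat5 ko was 7.18 for *Tnn* (standard error 1.64), 5.79 for *Atp2a3* (1.01), 5.26 for *Chrm3* (0.85), 1.49 for *Capn6* (1.26), 1.41 for *Dennd3* (0.47), 1.24 for *Fyb* (0.61) and 1.19 for *Usp11* (0.31). *Lrrc17* and *Esm1* had too few counts in these libraries to enter the fit. Of all genes fitted in this comparison, 7.05% had an adjusted p of at most 0.05 (edgeR). Since the low values of the Kat5 ko clones were used to pick the genes, these differences are a description. For *Esm1*, the clones overlapped, with 0.13 to 0.61 CPM in the Kat5 ko clones and 0.047 to 1.94 CPM in the Ep400 ko clones. For *Capn6* and *Fyb* they overlapped as well. For the other genes the lowest Ep400 ko clone was above the highest Kat5 ko clone. The share of all genes with such a gap was not determined, and the choice of the genes favours it.

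The genes lie on chromosomes 1, 5, 11, 13, 15 and X, with *Chrm3* and *Esm1*, *Dennd3* and *Fyb*, and *Usp11* and *Capn6* in pairs on the same chromosome. The genes of these chromosomes were shifted, as the median log2 difference from the wildtype mean, by −0.32 (chromosome 15 in clone Kat5/1) to 0.18 (chromosome 15 in clone Kat5/3) in the Kat5 ko clones and by −0.23 (chromosome X in clone Ep400/1) to 0.17 (chromosome 13 in clone Ep400/3) in the Ep400 ko clones. Medians over a whole chromosome do not show a change in a part of it. The number of copies of the 9 genes, and its part in their levels, was not tested.

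The nearest gene on each side of the 9 with a mean of at least 50 raw counts was read as well. Their distances ran from 4026 bases (*Cdk16* from *Usp11*) to 1821865 bases (*Mtr* from *Chrm3*). Of these 18 neighbours, 0 passed an adjusted p of 0.05 in the Kat5 ko clones (edgeR, against 0.625% of all genes tested in either direction), while 3 were lower and 1 higher at an unadjusted p of at most 0.05, a share like the 22.3% of all genes, and DESeq2 called 1 higher (3.61% of all genes). Their log2 fold changes were between −0.85 for *4930523C07Rik*, beside *Tnn* (standard error 0.29), and 0.54 for *Zzef1*, beside *Atp2a3* (standard error 0.15), with a median of −0.025. In the Ep400 ko clones, 2 of the 18 were lower and 2 higher at an adjusted p of at most 0.05 from edgeR, against 13.7% of all genes tested. *Fam185a* beside *Lrrc17* fell by 1.34 on the log2 scale (standard error 0.18, adjusted p = 0.00470 from edgeR) and *Pak3*, a kinase gene beside *Capn6*, by 1.82 (standard error 0.28, adjusted p = 0.00713 from edgeR). *Dab2* beside *Fyb* rose by 0.83 (standard error 0.20, adjusted p = 0.0314 from edgeR). *Snx18*, 374081 bases from *Esm1*, rose by 0.61 (standard error 0.13, adjusted p = 0.0183 from edgeR). With 1 library left out at a time, *Fam185a* and *Pak3* passed in 7 of 7 fits, *Snx18* in 4 and *Dab2* in 1.

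**Figure D4:**
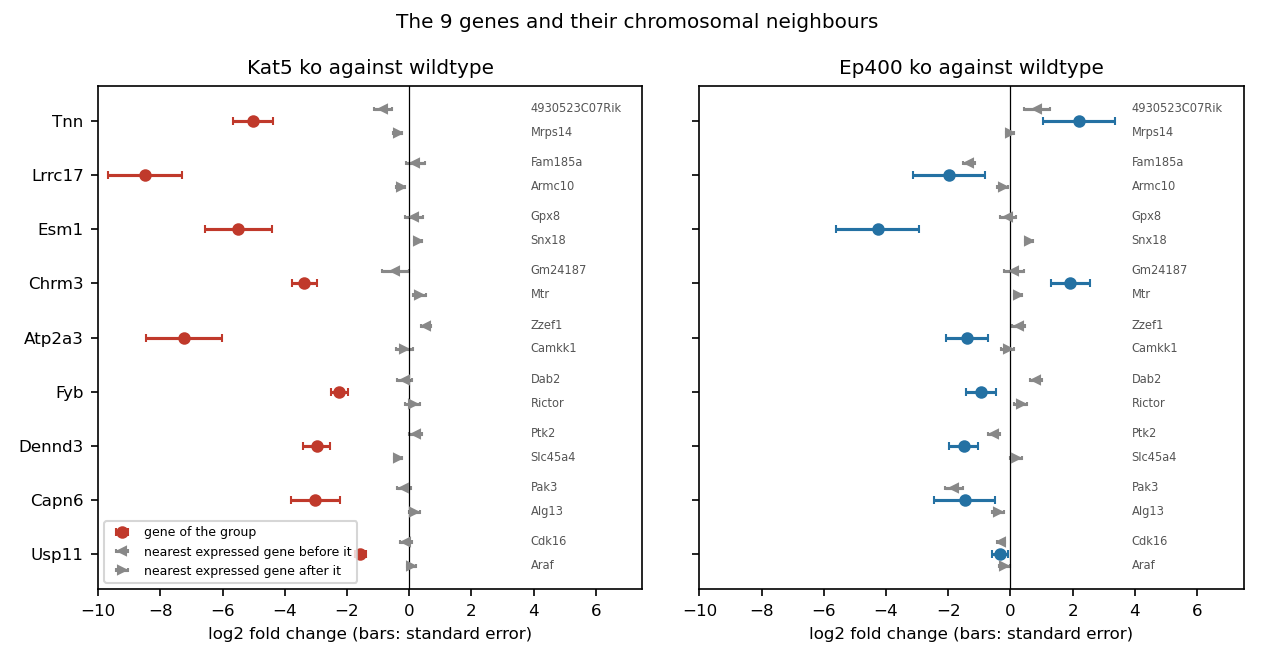
Log2 fold changes with standard errors (x axis) of each of the 9 genes (coloured) and of the nearest gene with a mean of at least 50 raw counts on each side (grey), for Kat5 ko (left) and Ep400 ko (right) against wildtype. The grey points of the left panel lie between −0.85 and 0.54 while the 9 genes lie at −1.58 or below, and in the right panel *Pak3* lies at −1.82, beside *Capn6* at −1.47.

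Relatives and partners of the 9 genes were read from 9 lists, drawn up by protein family and pathway, with 163 other genes in all. Of the 113 tested in the Kat5 ko clones, 1 was lower and 0 were higher at an adjusted p of at most 0.05 from edgeR, as were 0.447% and 0.179% of all genes. At an unadjusted p of at most 0.05, 17 were lower and 12 higher (22.3% of all genes in either direction), and DESeq2 called 10 lower and 3 higher of 118 (5.85% and 3.61% of all genes). The median log2 fold change of the 113 was −0.053, and that of all genes tested was −4.0e-06. Of the 116 tested in the Ep400 ko clones, 13 were lower and 8 were higher, as were 5.72% and 8% of all genes, with a median of −0.062 (0.043 for all genes). The sign of these 21 genes was the same with any 1 library left out, and 9 of them passed in all 7 such fits.

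In the list around *Chrm3*, with Gq subunits, phospholipases and regulators of G protein signalling, 1 of 10 genes tested was lower in the Kat5 ko clones and 2 in the Ep400 ko clones, and the median log2 fold changes were −0.27 and 0.36. The gene lower in both was *Rgs8*, which encodes a regulator that speeds GTP hydrolysis by G protein subunits. *Rgs8* was at 10.8 ± 9.77 CPM (SD, n = 4) in wildtype cells, 0.30 ± 0.22 CPM (n = 3) without Kat5 and 0.32 ± 0.17 CPM (SD, n = 3) in the Ep400 ko clones. Its log2 fold change was −5.14 in the Kat5 ko clones (standard error 0.82, adjusted p = 0.0450 from edgeR) and −5.11 in the Ep400 ko clones (standard error 0.82, adjusted p = 0.00779 from edgeR), and it passed in 2 and in 7 of 7 fits with a library left out. *Plcb3*, a phospholipase C that Gq activates, fell by 0.60 in the Ep400 ko clones (standard error 0.15, adjusted p = 0.0317 from edgeR), and passed in 2 of 7 such fits.

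Among genes of calcium stores around *Atp2a3*, with other calcium pumps, release channels and buffers, 0 of 16 passed in the Kat5 ko clones with edgeR, 2 were lower and 3 higher at an unadjusted p of at most 0.05, and DESeq2 called 1. Without Ep400, 2 of 18 were higher. *Ryr3*, a ryanodine receptor that releases calcium, was at 0.078 ± 0.064 CPM in wildtype cells and 13.3 ± 3.43 CPM in the Ep400 ko clones. *Atp2c2*, a pump of the secretory pathway, was at 0.20 ± 0.048 and 1.54 ± 0.36 CPM. Their log2 fold changes were 7.33 (standard error 0.63, adjusted p = 0.00120 from edgeR) and 2.93 (standard error 0.40, adjusted p = 0.00478 from edgeR). The list medians were 0.15 in the Kat5 ko and −0.0017 in the Ep400 ko clones.

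In the matrix list around *Tnn*, 0 of 13 genes passed in the Kat5 ko clones (edgeR, with 1 lower at an unadjusted p of at most 0.05, and 0 with DESeq2), and 2 were lower and 3 higher in the Ep400 ko clones. *Tnc*, the related tenascin-C, was at 95.9 ± 68.9 CPM in wildtype cells, 274 ± 296 CPM in the Kat5 ko clones and 7.56 ± 1.76 CPM in the Ep400 ko clones, where it fell by 3.66 on the log2 scale (standard error 0.63, adjusted p = 0.00994 from edgeR). *Tnxb*, tenascin-X, rose by 3.24 in the Ep400 ko clones (standard error 0.64, adjusted p = 0.0155 from edgeR). These tenascins thus moved in opposite directions there. *Acan*, the cartilage proteoglycan aggrecan, was at 18.2 ± 8.59 CPM in wildtype cells and 0.073 ± 0.10 CPM in the Ep400 ko clones (log2 fold change −7.83, standard error 0.94, adjusted p = 0.00337 from edgeR). *Fn1*, fibronectin, rose by 1.29 and *Sdc4*, a syndecan, by 1.12 (adjusted p = 0.0152 and 0.0142 from edgeR). The list medians were 0.11 in the Kat5 ko and −0.052 in the Ep400 ko clones.

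In the other 6 lists, 0 genes passed in the Kat5 ko clones with edgeR, 11 were lower and 9 higher of 74 at an unadjusted p of at most 0.05, and DESeq2 called 7 lower and 3 higher of 76, against the same shares of all genes as above. In the Ep400 ko clones, the list of *Esm1* and its inducers had 3 of 11 genes lower, *Hgf* (log2 fold change −1.48, standard error 0.38), *Met*, its receptor (−1.32, 0.31), and *Flt1*, a VEGF receptor (−1.01, 0.26). The median of that list was −0.63, and −0.012 in the Kat5 ko clones. Among calpains, *Capn5* was at 11.9 ± 1.36 CPM in wildtype cells, 3.51 ± 2.73 CPM in the Kat5 ko clones and 39.2 ± 7.91 CPM in the Ep400 ko clones. Its log2 fold change was 1.72 in the Ep400 ko clones (standard error 0.18, adjusted p = 0.00234 from edgeR) and −1.78 in the Kat5 ko clones (standard error 0.53, adjusted p = 0.113 from edgeR). No other of the 9 genes of its list passed, and the list medians were −0.063 in the Kat5 ko and 0.20 in the Ep400 ko clones.

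Of 20 genes for DENN domain proteins and Rab partners, *Dennd4c* rose by 0.78 (standard error 0.20) and *Sbf2* fell by 0.67 (standard error 0.12) in the Ep400 ko clones, with medians of −0.094 in the Kat5 ko and −0.0012 in the Ep400 ko clones. In the adaptor module of *Fyb*, *1700024P16Rik* fell by 2.43 (standard error 0.59) and *Vasp*, an actin regulator, by 0.62 (standard error 0.18) out of 13 tested, with medians of 0.014 and −0.15 in the same order. Among 12 deubiquitinases and partners of *Usp11*, *Usp9x* fell by 0.91 (standard error 0.21), with medians of 0.36 and −0.10. In the RANKL pathway, in which *Lrrc17* has been placed, 2 of 10 genes were lower, the phospholipases *Plcg1* (−0.62, standard error 0.17) and *Plcg2* (−2.19, standard error 0.53), and *Spp1*, osteopontin, was higher (0.77, standard error 0.20). The medians of this list were −0.41 in the Kat5 ko and 0.086 in the Ep400 ko clones. Of the genes named from these 6 lists, *Capn5* and *Sbf2* passed in all 7 fits with a library left out, and the others in 1 to 3.

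**Figure D5:**
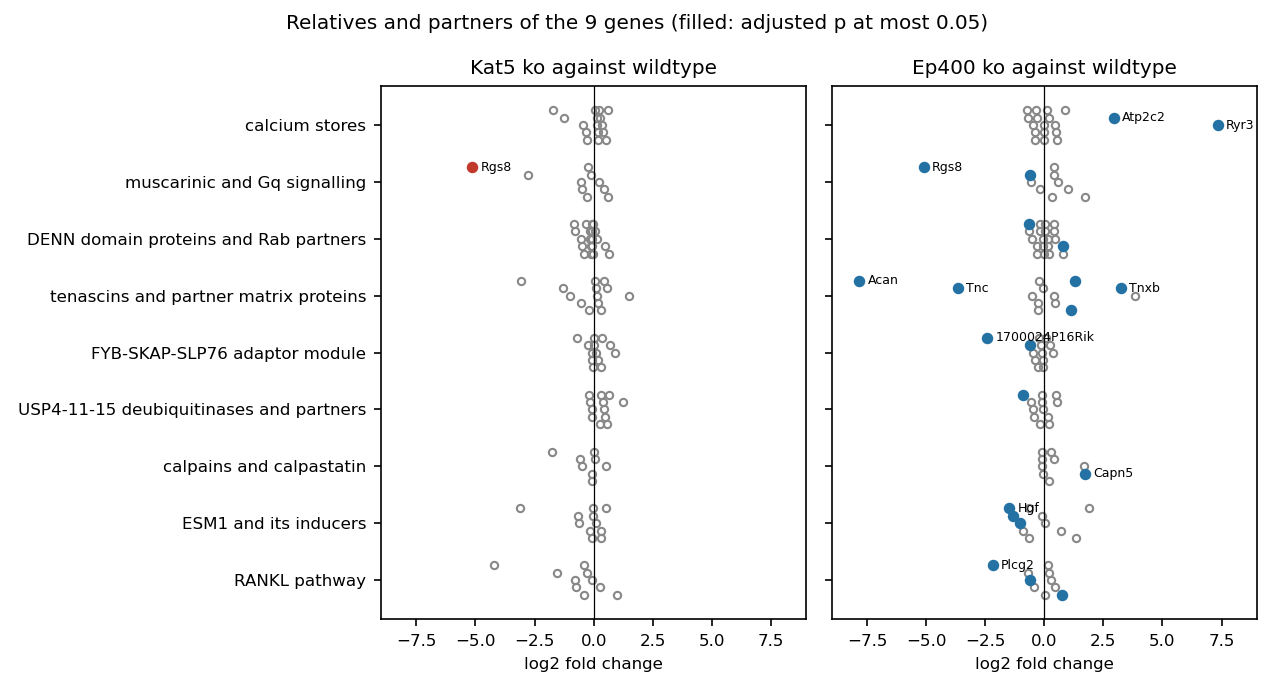
Log2 fold changes (x axis) of the other genes in the 9 lists (y axis) for Kat5 ko (left) and Ep400 ko (right) against wildtype. Each circle is a gene, filled where the adjusted p from edgeR was at most 0.05. The left panel has 1 filled circle, *Rgs8* at −5.14, and the right panel has 21, from *Acan* at −7.83 to *Ryr3* at 7.33.

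The genes whose levels were most like the mean pattern of the 9 over all 10 libraries were sought by Pearson's r of log2 CPM among 14070 genes. The pattern, as the mean of standardized log2 CPM of the 9 genes, was at 0.59 to 0.87 in the wildtype libraries, −1.17 to −0.93 in the Kat5 ko clones and −0.51, 0.26 and 0.53 in clones Ep400/1, Ep400/2 and Ep400/3. The 10 genes nearest to it were *Cnp*, *B3gnt9*, *Zfand2b*, *Cradd*, *Fads1*, *Ttc25*, *Zfp422*, *Ascc1*, *Nudt22* and *Aldoc*, with r from 0.947 to 0.974. The points of these correlations are libraries that fall into groups, and the 9 genes were picked for a difference between the groups, so r is given as a description.

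Among them, *Cnp*, which encodes a nucleotide phosphodiesterase, was at 29.0 ± 1.38 CPM (SD, n = 4) in wildtype cells, 13.1 ± 2.45 CPM (n = 3) without Kat5 and 21.3 ± 4.37 CPM (SD, n = 3) in the Ep400 ko clones. *Ttc25* was at 1.00 ± 0.23, 0.10 ± 0.050 and 0.75 ± 0.50 CPM in the same order. *Aldoc*, the gene of aldolase C in glycolysis, was at 13.7 ± 3.86 CPM in wildtype cells and 1.29 ± 0.46 CPM in the Kat5 ko clones, and at 0.80, 7.87 and 11.7 CPM in clones Ep400/1, Ep400/2 and Ep400/3. Its highest Ep400 ko clone was again clone 3, as for the mean pattern. *Fads1*, a desaturase of fatty acids, was at 324 ± 59.9, 155 ± 27.0 and 228 ± 40.2 CPM in the 3 groups.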

How the data were processed

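RNA from 4 wildtype samples, 3 Kat5 ko clones and 3 Ep400 ko clones was sequenced by the authors, who deposited raw counts of reads per gene for the 10 libraries. The submitters' processing notes name bcl2fastq 2.20, STAR 2.7.3, DESeq2 1.36.0 and R 4.2.1. The counting program and its strand setting are not given in the sources used here, so reads of overlapping genes cannot be separated. The 2 deposited tables of normalized values were not used. Gene coordinates follow GENCODE M21 and the build GRCm38 (mm10).

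Groups were taken from the labels. Counts were tested with edgeR 4.0.16 in R 4.3.3 (filterByExpr, TMM, quasi-likelihood test with robust estimation, two-sided, Benjamini-Hochberg adjustment over all genes tested) for each knockout against wildtype. Robust estimation was not part of the planned test. It was chosen after the calls without it had been seen, because it matched an earlier analysis of the same counts, and the counts of calls without it, over all genes and over the 9, are given among the alternatives. Standard errors were derived from the log2 fold change and the F statistic. The test was tried on simulated data. The 9 genes and the lists were chosen with earlier results of these data known. Named genes were the 9, the targeted genes, list genes with an adjusted p of at most 0.05, overlapping genes, the nearest genes on each side with a mean of at least 50 raw counts, and the 10 genes most alike by Pearson's r.

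Replicates differed beyond sampling noise (a chi-square of 27.3 to 261 per degree of freedom). Adjusted p-values measure the spread between these samples and clones. Alternatives were DESeq2 1.42.0, other scalings and filters, a replicate block, 1 fit of all libraries, and each library left out. The fits without robust estimation and the alternatives of the direct comparison were chosen after seeing the data.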

Additional observations from a re-analysis of the deposited data

Results flagged for a closer look

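Among the 4 wildtype libraries, library 2 stood apart for *Chrm3*, with a gap to its neighbour of 0.941 of the whole range, and library 3 for *Dennd3*, with a gap of 0.856 of the range. Both gaps exceeded the 95% limit of Dixon's test for 4 samples, a limit that chance alone passes in about 5% of groups. In both genes all Kat5 ko clones lay below the other wildtype libraries as well.

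Of the 21 list genes named for either knockout, 10 differed between the knockouts when Ep400 ko clones were tested directly against Kat5 ko clones (edgeR, n = 3 clones each), as did 7.05% of all 13587 genes tested. All 10 had been named because the same Ep400 ko libraries differed from wildtype, so the count of 10 is in large part built into the choice. The log2 difference was 7.87 for *Ryr3* (adjusted p = 0.0144 from edgeR), 3.19 for *Atp2c2* (0.0484), 3.45 for *Capn5* (0.0322), 2.65 for *Tnxb* (0.0379) and 1.48 for *Spp1* (0.0282), all higher in the Ep400 ko clones. It was −8.08 for *Acan* (adjusted p = 0.0379 from edgeR), −5.21 for *Tnc* (0.0431), −3.37 for *1700024P16Rik* (0.0346), −1.36 for *Met* (0.0453) and −1.23 for *Usp9x* (0.0332), all lower in the Ep400 ko clones. With 1 clone left out at a time the sign was the same for all 10, but 0 of them passed in every such fit.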

How the results depend on the processing

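The sign of each of the 9 genes was the same under every alternative, in both comparisons with wildtype. The number of genes that met the DEG thresholds in the Kat5 ko clones was 64, and 535 with DESeq2, 178 without a filter on low counts, 23 in the fit of all 10 libraries, 52 without robust estimation and 1 to 885 with 1 library left out (1 without wildtype library 1 or 4, 4 without clone Kat5/3, 885 without clone Kat5/1). Of the 64, 76.6% were lower, but 56.3% of the 32 called without clone Kat5/2. Of the 9 genes, 7 were called lower, 6 without robust estimation, as in the planned test, 3 in the fit of all 10 libraries and 0 to 9 with 1 library left out. In the Ep400 ko clones the number was 888, 896 without robust estimation and 533 to 1021 with 1 library left out (533, 589 and 534 without wildtype library 1, 2 or 4). Of the 9 genes 0 were called lower there, 2 with DESeq2, 1 without a filter on low counts and 0 to 2 with 1 library left out. The cause of these differences was not tested.

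Samples with the same replicate number did not deviate together (correlations −0.11 to 0.15 for Kat5 ko and −0.029 to 0.11 for Ep400 ko), so the numbers pair no samples. With the replicate number as a block, 0 genes and 0 of the 9 were called in the Kat5 ko clones and 158 genes in the Ep400 ko clones.

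Signs changed in the Kat5 ko comparison for genes close to no difference. *Acan* (0.19) was at −0.98 with the replicate block and −2.18 to 0.70 with 1 library left out. *Met* (−0.012) was at 0.0033 with DESeq2, 0.00065 with RLE size factors, 0.15 with the block, 0.020 in the fit of all 10 libraries and −0.18 to 0.13 with 1 library left out. *Ep400* (0.15) was at −0.043 to 0.28 with 1 library left out. At 3 or 4 libraries a group, a result that missed the threshold does not show that a gene was unchanged, and genes with few counts, such as *Lrrc17* and *Atp2a3* in the Kat5 ko clones, are limited by depth.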
